A study of Mus musculus with 189 samples.

Results

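Embryonic stem cell (ESC) RNA was compared with blastomeres of the early mouse blastocyst that carried an inner cell mass (ICM) profile. Of the 189 samples measured, 10 were ESC RNA and 52 were blastomeres or small groups of blastomeres from 7 blastocysts of the 32-cell stage. ICM-like samples were selected on measured values, as those with a lineage score above 0. The score was the mean of Esrrb, Klf2, Klf4, Pdgfra, Pecam1, Pou5f1, Sox2 and Trim28 minus the mean of Cdx2, Dppa1, Gata3, Id2, Krt8, Lats2, Tead4 and Tspan8. A pair of the 52 samples was left out by rule, with scores of −8.59 and 9.52, and of the other 50 samples 40 were ICM-like and 10, with scores below 0, are called trophectoderm-like (TE-like) here. Since the score chose the samples, its 16 genes are described below without a test.

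ESC lines are grown from the ICM of blastocysts and keep its capacity to form all tissues of the embryo. The ICM itself holds cells on the way to epiblast, which share Pou5f1, Sox2 and Nanog with ESC, and cells on the way to primitive endoderm, an extraembryonic layer marked by Gata6, Pdgfra and Sox17. The split between both depends on fibroblast growth factor (FGF) signalling, with Fgf4 secreted by epiblast precursors and read through the MAP kinase pathway. The first outer layer, the trophectoderm, expresses Cdx2, Gata3 and epithelial keratins.

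Expression was measured by quantitative PCR on microfluidic chips for 192 genes, of which the authors retained 156, most of them encoding chromatin modifiers. Embryos came from F1 (C57BL/6 x DBA/2) females mated to C57BL6 males and were cultured in KSOMaa medium at low oxygen, and blastomeres went directly into the RT-qPCR mix. The ESC samples were dilutions of standard RNA in 3 label series. Series a held 3 samples of 200 pg, series b single samples of 25, 50, 100 and 200 pg, and series ESC2 single samples of 32, 160 and 800 pg. The ESC line, its strain, its sex, its culture medium and what separates the series are not given in the sources used here. The 40 ICM-like samples were 26 single cells, 7 pairs and 7 groups of 3 or more cells, and each of the 7 embryos, numbered 1, 8, 9, 10, 11, 12 and 13 in the labels, gave between 3 and 8 of them.

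Values are on a log2 scale: 30 minus the cycle threshold (Ct), from which the same quantity averaged over the control genes Hnrnpr, Ssu72 and Ube2e1 was subtracted. Undetected genes carry a Ct of 30, so their values are a floor set by the control genes of each sample. In RNA from many cells, fewer expressing cells and less RNA per cell cannot be told apart, and ESC values are averages of that kind. Where 3 values are given for a group below, they are its lowest, median and highest sample. Differences are ESC RNA minus ICM-like blastomeres, between the mean of the 3 ESC series and the mean of the 7 embryo means, with the standard error and the Benjamini-Hochberg adjusted p of limma. The ESC samples are aliquots, so p-values measure the spread between these series and embryos, part of which may be technical. Every ESC sample was diluted RNA and every ICM-like sample was whole cells. Input and cell type therefore cannot be told apart in these differences, and the alternatives below do not vary the type of input.

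Lineage scores were 5.44, 6.92 and 8.46 in ESC RNA, 0.51, 7.75 and 11.09 in ICM-like samples and −9.16, −7.61 and −4.26 in TE-like samples. All ESC samples lay above 0. Every oocyte, zygote and 2-cell to 8-cell sample did too, from 0.56 in a zygote to 11.27 in a 4-cell blastomere. A score above 0 is therefore not particular to the ICM. The ICM-like samples nearest the limit of 0 scored 0.51 and 1.64, and the nearest below it scored −4.26 and −5.77, so no sample lay just below it. The isolated ICM labelled as such scored only 0.46 and carried trophectoderm transcripts, with Gata3 at 1.53 and Cdx2 at 0.43.

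Expression of the 4 marker genes was seen in every sample on both sides. Pou5f1, the core pluripotency factor and a score gene, measured 4.62, 4.97 and 5.13 in ESC RNA and 4.38, 5.6 and 6.18 in ICM-like samples. Both ranges overlapped, with the ICM-like median above the highest ESC value. Nanog, a homeodomain factor of the epiblast, was at 1.85, 2.20 and 2.47 in ESC RNA and −2.95, 1.24 and 3.57 in ICM-like samples. Its ESC values were tightly grouped inside the wide ICM-like range, and the difference of 1.16 ± 0.47 did not pass the test (adjusted p = 0.062, 95% interval 0.11 to 2.21).

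Zfp42, also called Rex1, a zinc finger gene used as a marker of naive pluripotency, did separate the groups. It measured 2.42, 2.67 and 2.87 in ESC RNA and −4.19, 0.43 and 1.71 in ICM-like samples. Every ESC sample was above every ICM-like sample, and the difference was 2.29 ± 0.41 (adjusted p = 0.0011). TE-like samples had Zfp42 at −0.60, 0.09 and 0.98, inside the ICM-like range, so ESC RNA lay above both blastomere groups. Dnmt3b, a de novo DNA methyltransferase, measured 2.65, 3.60 and 4.54 in ESC RNA and −1.78, 0.32 and 2.73 in ICM-like samples. The lowest ESC values just overlapped the highest ICM-like values, and the difference was 3.07 ± 0.34 (adjusted p = 6.0e-05). In TE-like samples Dnmt3b was at 1.92, 2.33 and 3.47, between the medians of both other groups.

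The promoters of these differing markers are shown because their sequences are unlike in composition. Sequences are the 250 bases before the annotated start site (RefSeq, GRCm38.p6), written 5′ to 3′ on the gene's strand. In Zfp42 (chr8:43307010-43307259, minus strand) capitals mark the octamer ATTTGCAT, the reverse complement of ATGCAAAT, which begins 186 bases before the start site. In Dnmt3b (chr2:153649199-153649448, plus strand) capitals mark CG.
Zfp42: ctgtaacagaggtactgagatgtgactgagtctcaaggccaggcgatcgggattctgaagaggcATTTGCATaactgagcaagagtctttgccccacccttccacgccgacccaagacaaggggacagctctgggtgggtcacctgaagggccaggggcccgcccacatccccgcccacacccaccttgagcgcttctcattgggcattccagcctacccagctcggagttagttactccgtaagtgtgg
Dnmt3b: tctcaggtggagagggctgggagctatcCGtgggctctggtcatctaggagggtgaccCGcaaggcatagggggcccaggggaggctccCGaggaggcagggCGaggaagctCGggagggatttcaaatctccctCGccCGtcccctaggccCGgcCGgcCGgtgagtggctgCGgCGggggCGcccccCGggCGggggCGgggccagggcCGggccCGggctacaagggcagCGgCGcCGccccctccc
The Dnmt3b window held 21 CG and no octamer, and the Zfp42 window 9 CG, against a median of 6 over 32851 windows. The octamer on either strand occurred in 1.60% of all windows of this length. Of the 156 genes 110 were matched by symbol, and among them Zfp42, Phc2, H3f3b, Cdx2 and Tspan8 held it in at least 1 window. A gene with several windows counted if any of them held it, so this count is not comparable with the share over windows. A match describes letters in this window and does not by itself show binding.

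**Figure D1:**
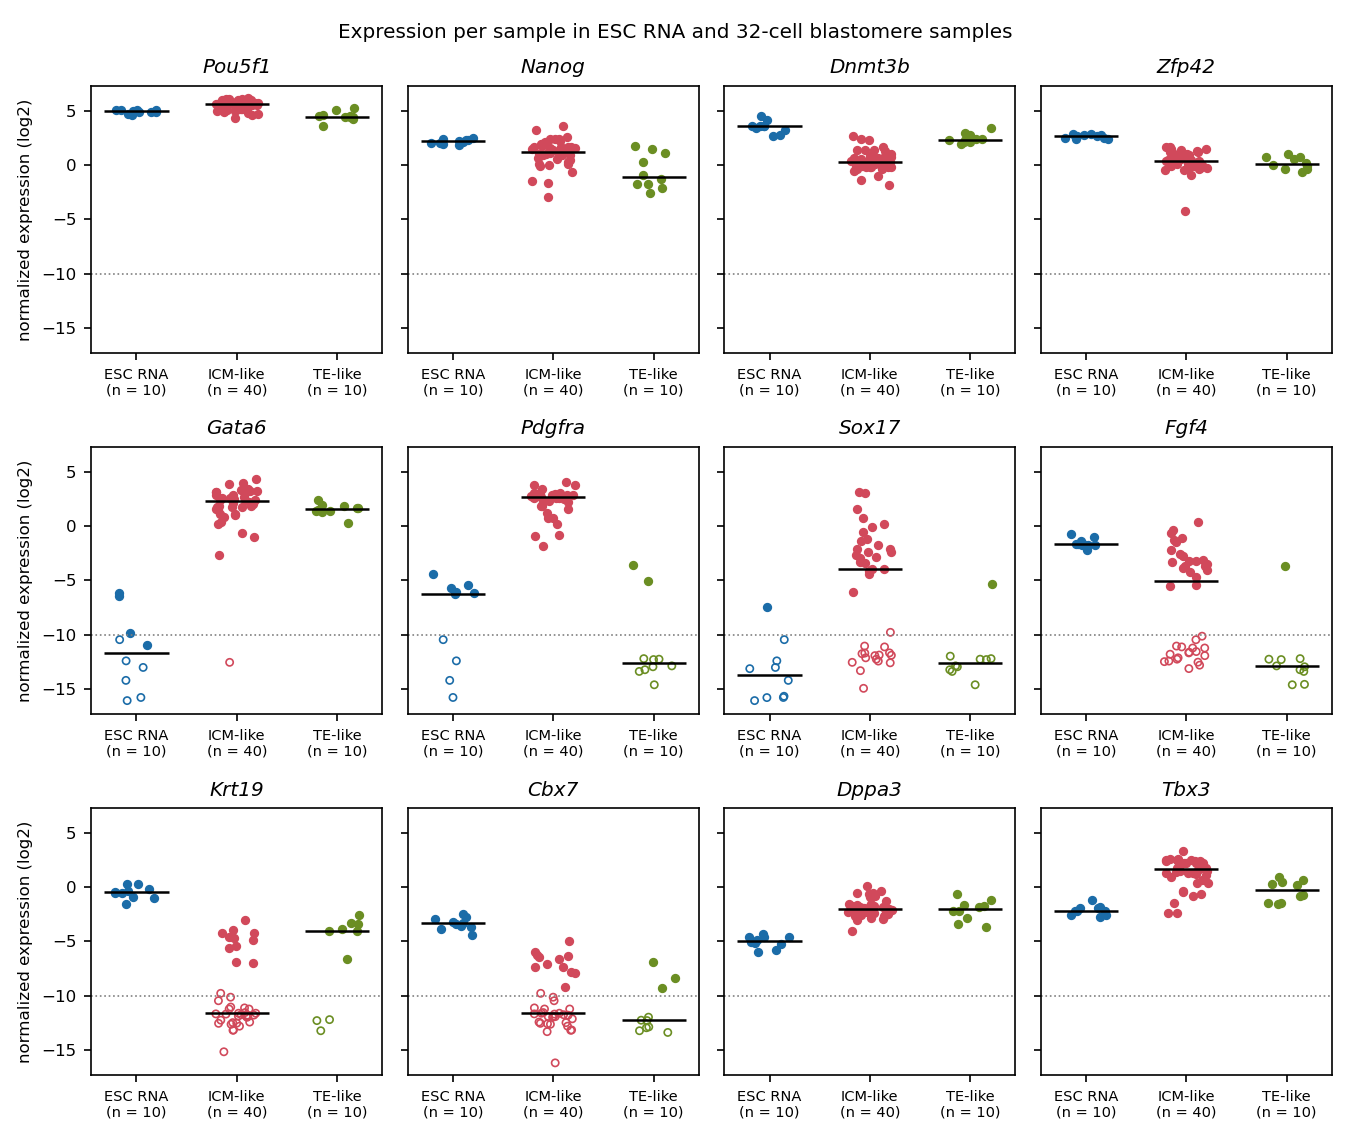
Normalized expression (log2, vertical axis) of 12 genes in each ESC RNA (blue, n = 10), ICM-like (red, n = 40) and TE-like (green, n = 10) sample. Filled points are detected values, open points are undetected genes at the floor of their sample, black bars are medians, and the dotted line marks −10. Zfp42, Krt19 and Cbx7 lay higher in all ESC samples than in all ICM-like samples, and Dppa3 lower.

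The score genes lay on both sides of 0 and are given as a description. Pdgfra, the receptor that marks primitive endoderm, measured −15.79, −6.22 and −4.38 in ESC RNA and −1.86, 2.68 and 4.05 in ICM-like samples, with no overlap. It was undetected in 4 of 10 ESC samples and detected in all 40 ICM-like samples. Among the other ICM genes of the score, the difference was 2.39 for Sox2, 1.65 for Esrrb, 1.51 for Klf2, 0.02 for the co-repressor Trim28, −0.37 for Klf4 and −0.70 for the adhesion molecule Pecam1.

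On the trophectoderm side of the score, Id2, an inhibitor of helix-loop-helix factors, was at 1.63, 2.24 and 2.88 in ESC RNA and −13.31, −4.39 and 3.39 in ICM-like samples. It was detected in every ESC sample and in 24 of 40 ICM-like samples. The keratin gene Krt8 was at −1.95, −0.87 and −0.50 in ESC RNA and −8.88, −3.93 and 0.59 in ICM-like samples. The difference was −1.56 for the Hippo kinase Lats2 and −0.97 for Tead4, a transcription factor of the same pathway. The defining factors were near the floor in ESC RNA: Cdx2 was detected in 5 of 10 samples with a highest value of −5.96, Gata3 in 4 of 10 with a highest value of −5.69. Tspan8 was detected in 5 and Dppa1 in 3 of the 10 ESC samples. Over the 12 trophectoderm markers the mean value per sample ranged from −7.14 to −5.41 in ESC RNA and from −9.51 to −1.25 in ICM-like samples, against −1.86 to 0.33 in TE-like samples. These markers include the 8 trophectoderm genes of the score, so the gap between ICM-like and TE-like samples follows from the selection.

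Template and control genes bore on the comparison. The mean Ct over the control genes was 13.8, 15.1 and 19.5 in ESC RNA and 13.8, 18.04 and 20.2 in ICM-like samples, so the typical ICM-like sample held less template. The number of undetected genes was 9, 13 and 27 of the 156 in ESC RNA and 7, 26 and 36 in ICM-like samples. Of the 26 single cells the median control Ct was 18.2, which lay between ESC samples of 25 pg in series b (17.6) and 32 pg in series ESC2 (19.5). At comparable labelled amounts series ESC2 had the higher Ct, at 16.9 for 160 pg against 14.2 for 200 pg in series b.

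**Figure D2:**
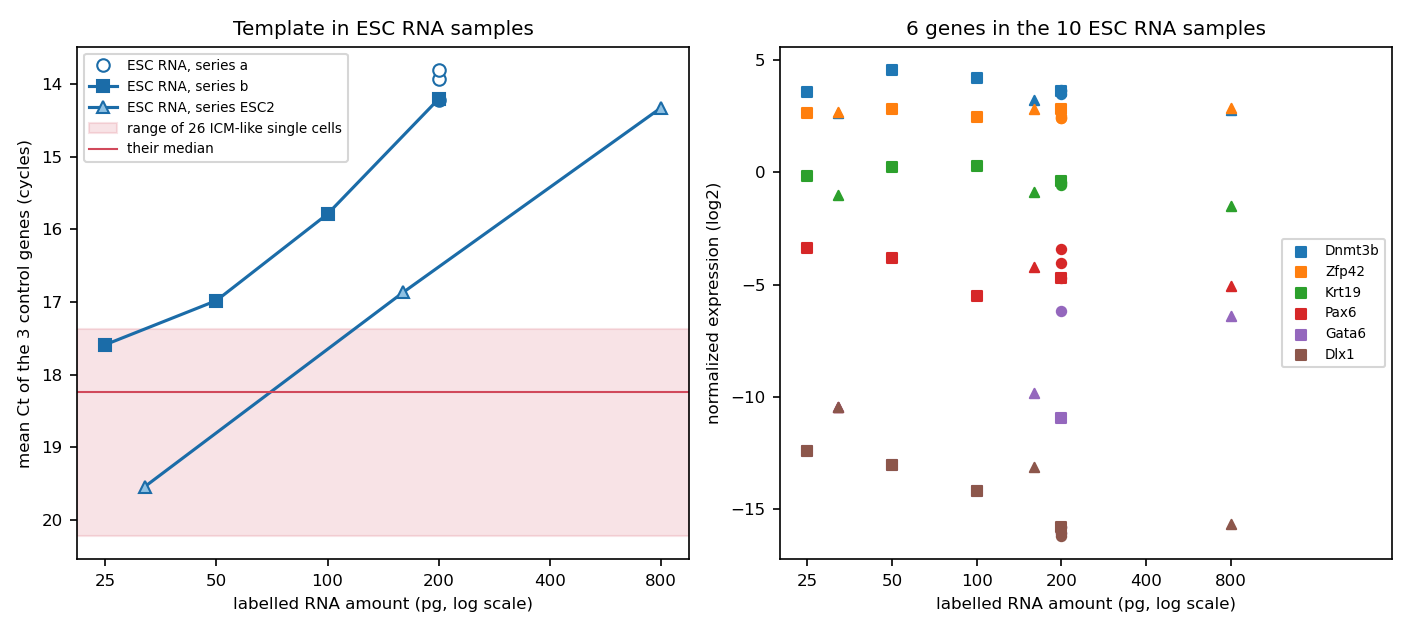
Left, mean Ct of the 3 control genes (cycles, axis reversed) against the labelled RNA amount (pg, log scale) of the 10 ESC RNA samples by series, with the range and median of the 26 ICM-like single cells shaded. Right, normalized expression (log2) of 6 genes against RNA amount in the same ESC samples, with circles, squares and triangles for series a, b and ESC2. Dnmt3b, Zfp42 and Krt19 stayed level, while Dlx1, undetected in all 10 samples, followed the floor.

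Within ESC RNA, Ct fell by 1.13 cycles per doubling of RNA for the mean of the control genes in series b and by 1.12 in series ESC2. For the median of 118 genes detected in all ESC samples the values were −1.05 and −1.15 cycles. The normalized value depended on RNA amount in 4 of 156 genes (2.56% of all tested), all of them lower at more RNA, by limma on the 10 samples with series as a term. These were Dppa1, a score gene undetected in 7 of 10 samples, with a slope of −1.20 ± 0.10 per doubling, and Dlx1, Rbp2 and Smyd1, with −1.13 ± 0.06 each. The latter 3 were undetected in all 10 samples, so their slope was that of the floor. With values below −10 set to −10, no gene passed, and 21 were at an unadjusted p under 0.05 against 20 before. The slope of Zfp42 was 0.03 ± 0.04, that of Dnmt3b 0.01 ± 0.09 and that of Krt19 −0.10 ± 0.07 per doubling.

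The control genes Hnrnpr and Ssu72 stood apart between the groups. Hnrnpr relative to the control mean was at −0.0038, 0.46 and 1.44 in ESC RNA and −2.85, −1.25 and −0.16 in ICM-like samples, with no overlap. Ssu72 was at −1.60, −1.09 and −0.67 in ESC RNA and −1.03, 0.67 and 1.46 in ICM-like samples, in the opposite direction. Ube2e1 was at 0.07, 0.65 and 1.05 and −0.27, 0.72 and 1.53. The choice of control genes therefore moved all differences: the median over the 137 genes used neither by the score nor as a control was 0.69, and it shifted by 0.90 without Hnrnpr, −0.85 without Ssu72, −0.23 with each sample set to its median and −0.54 in the deposited normalized table. Differences below about this size have no settled direction.

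Of the 137 genes tested, 68 (49.6%) passed an adjusted p of 0.05, of which 48 (35% of the 137) were higher in ESC RNA and 20 (14.6%) lower. Higher genes made up 70.6% of the calls with the 3 control genes, 85.6% of 104 calls without Hnrnpr, 41.4% of 58 calls without Ssu72 and 52.7% of 55 calls in the deposited normalized table. Some tested genes, such as Scmh1, Ezh1, Tet1, Tbx3, Dnmt3b and Kdm1b, were grouped by the study with ICM or trophectoderm genes in these cells. Their differences are not independent of the selection. All 68 genes also passed when all 50 blastomere samples were used without selection by score. Under every alternative for RNA amount, 22 genes (16.1%) remained higher and 8 (5.84%) lower. The setting that lost most calls was single cells against the 2 ESC samples of matched Ct, where 34 genes passed. There Fgf4 (5.49), Phf19 (5.32), Suv39h2 (3.91), Dnmt3a (1.70), Jmjd1c (1.76) and Bmi1 (−2.17) kept their direction and did not pass. When the 5 other scalings were required too, 14 remained higher and 7 lower. The 14 were Krt19, Cbx7, Setd7, Kdm4c, Kdm1b, Mapk3, Dnmt3b, Jmjd8, Cbx1, Hells, Zfp42, Eif1a, Dicer1 and Ctcf, and the 7 were Gata6, Ring1, Tbx3, Dppa3, Lrpap1, Satb1 and Scmh1.

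**Figure D3:**
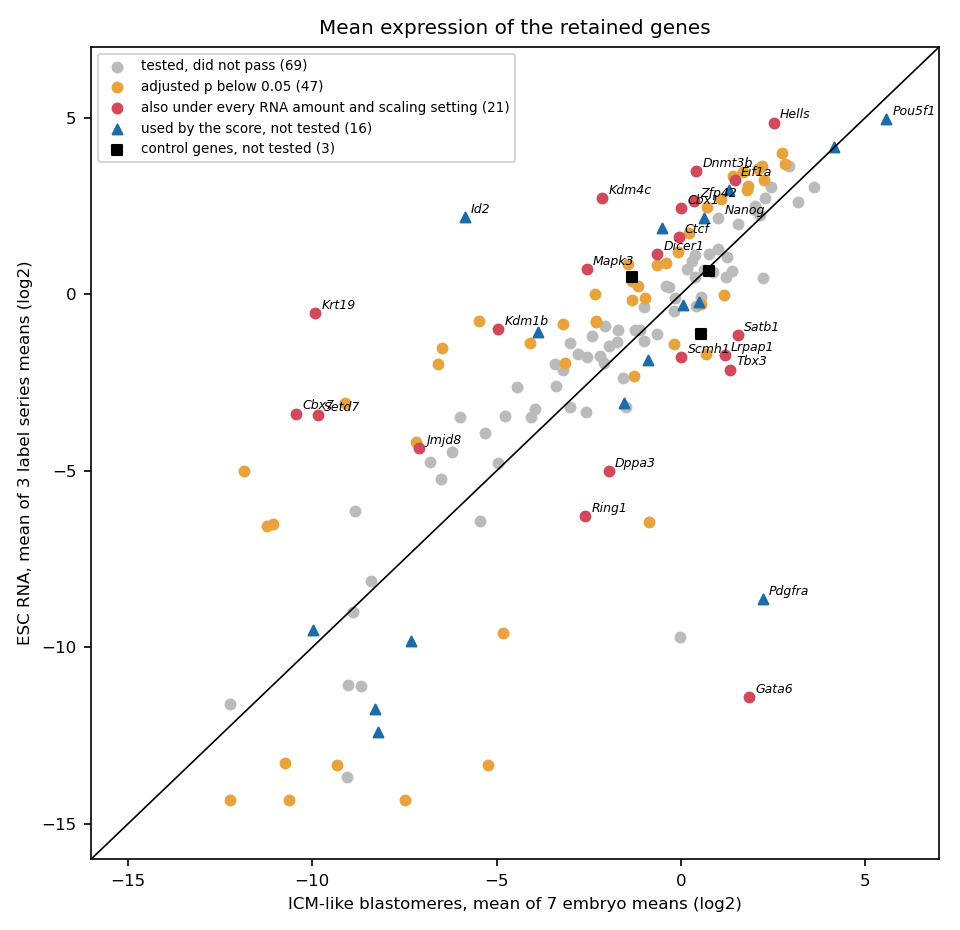
Mean normalized expression (log2) of the 156 retained genes in ESC RNA (mean of 3 series, vertical axis) against ICM-like blastomeres (mean of 7 embryo means, horizontal axis), with the line of equality. Colours give the outcome of the test for 137 genes, while triangles and squares are the 16 score genes and 3 control genes, which were not tested. Gata6 and Pdgfra lay farthest below the line, Krt19 and Id2 farthest above it.

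Samples of both groups did not overlap at all in 9 genes that were higher in ESC RNA (6.57% of 137) and 2 that were lower (1.46%). The 9 were Krt19, Cbx7, Setd7, Kdm4c, Mapk3, Hells, Zfp42, Jmjd1c and Ctcf, and the 2 were Lrpap1 and Dppa3. Members of these lists outside the rule for named genes were picked with their values known.

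Gata6 had the largest negative difference of the genes tested. The gene encodes a zinc finger factor that drives primitive endoderm, and it measured −16.07, −11.68 and −6.18 in ESC RNA and −12.55, 2.33 and 4.36 in ICM-like samples. It was detected in 39 of 40 ICM-like samples, and in 4 of 10 ESC samples at −6.18 or lower. The single ICM-like sample without it made the ranges overlap, and the difference was −13.27 ± 0.85 (adjusted p = 2.1e-06). Since 6 ESC values are floors, this size depends on the floor, and with only ESC RNA of 50 pg or less it was −13.44. TE-like samples also held Gata6, at 0.30, 1.58 and 2.45.

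Sox17, a later factor of the same lineage, measured −16.07, −13.67 and −7.43 in ESC RNA and −14.94, −3.93 and 3.17 in ICM-like samples. It was detected in 1 ESC sample and in 24 of 40 ICM-like samples, and the difference was −8.10 ± 1.95 (adjusted p = 0.0064). The call was lost with ESC RNA of 50 pg or less (−6.34) and with single cells set against ESC RNA of matched Ct (−4.95). Detection varied between embryos, from 1 of 8 samples in embryo 1 to 5 of 5 in embryo 12. Per sample, the mean of Gata6, Sox17 and Pdgfra was −15.79, −10.59 and −6.44 in ESC RNA and −8.68, 0.13 and 3.47 in ICM-like samples. Pdgfra is a score gene, so this mean was set in part by the selection and is given as a description.

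Single ICM-like cells combined epiblast and primitive endoderm genes. Nanog and Gata6 were both detected in 25 of the 26 single cells, and in 4 of 10 ESC samples. Since Nanog was detected in every single cell, that count is the count of cells with Gata6. All 10 TE-like samples also held Nanog, at −2.58, −1.07 and 1.72, and Gata6, at the values given above. Holding both genes was therefore not particular to ICM-like samples. ESC samples are RNA of many cells, so detection of both genes there does not show that single cells held both. Fgf4 and Sox17 were both detected in 5 single cells, Fgf4 alone in 7, Sox17 alone in 7 and neither in 7. Whether either pair occurred together more or less often than by chance was not tested. In ESC RNA, Fgf4 was detected without Sox17 in 9 samples and together with it in 1.

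Fgf4, the FGF ligand of epiblast cells, measured −2.15, −1.64 and −0.70 in ESC RNA and −13.12, −5.04 and 0.36 in ICM-like samples. It was detected in all ESC samples and in 22 of 40 ICM-like samples, where the detected values reached above those of ESC RNA. The difference was 4.96 ± 1.36 (adjusted p = 0.013). Downstream of it, Mapk3, which encodes the kinase ERK1, was at 0.48, 0.62 and 1.13 in ESC RNA and −11.05, −2.31 and −0.24 in ICM-like samples, without overlap, and differed by 3.26 ± 0.28 (adjusted p = 1.8e-05). The receptor genes Fgfr2 (1.04 ± 0.61) and Fgfr3 (−2.03 ± 1.23) did not pass.

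Among 8 pluripotency genes outside the score, 4 were higher (Dnmt3b, Fgf4, Tet1 and Zfp42), 2 were lower and 2 did not pass, against 35% higher and 14.6% lower over the 137 genes. The lower ones were Tbx3, a T-box factor of the naive state, and Dppa3, also called Stella, which protects the maternal genome from demethylation. Tbx3 measured −2.78, −2.18 and −1.15 in ESC RNA and −2.37, 1.65 and 3.31 in ICM-like samples. ESC values lay among the lowest ICM-like ones, and the difference was −3.47 ± 0.43 (adjusted p = 1.2e-04). Dppa3 measured −5.94, −4.94 and −4.32 in ESC RNA and −4.04, −2.0 and 0.14 in ICM-like samples. Here no sample overlapped, and the difference was −3.04 ± 0.32 (adjusted p = 5.2e-05). Prdm14, a repressor of FGF signalling in ESC, differed by 1.32 ± 1.33 and did not pass.

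Krt19, a keratin of simple epithelia, had the largest positive difference. It measured −1.52, −0.47 and 0.29 in ESC RNA and −15.17, −11.62 and −3.06 in ICM-like samples, where it was detected in 11 of 40. All ESC samples lay above all ICM-like samples, and the difference was 9.38 ± 0.81 (adjusted p = 1.8e-05). Since most ICM-like values are floors, the size depends on them, and it was 8.04 with values below −10 set to −10. TE-like samples had Krt19 at −13.23, −4.06 and −2.58, also below ESC RNA. Elf5, a trophoblast factor, was detected in 1 ESC sample and 14 ICM-like samples and differed by −4.02 ± 1.32 (adjusted p = 0.028). This call was lost with values below −10 set to −10, at −1.63, and with ESC RNA of 50 pg or less, at −2.26, and also without any 1 ESC series. Of the 4 trophectoderm markers outside the score, Hand1 and Fgfr2 did not pass.

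DNA methylation genes were higher in ESC RNA in 4 of 6 cases, Dnmt3a, Dnmt3b, Hells and Tet1, and lower in none. Over the 137 genes 35% were higher and 14.6% lower, so with 6 genes the absence of lower calls is near that background. The median difference of the list was 1.89, against 0.69 over all 137 genes. Hells, a chromatin remodeller required for DNA methylation, measured 4.32, 4.75 and 5.68 in ESC RNA and 1.18, 2.53 and 3.99 in ICM-like samples, without overlap, and differed by 2.35 ± 0.27 (adjusted p = 8.0e-05). Dnmt3a, the other de novo methyltransferase, differed by 2.29 ± 0.38, and Tet1, which oxidizes methylcytosine, by 1.48 ± 0.33. The Tet1 call did not hold under every scaling, and the Dnmt3a call did not hold under every RNA amount alternative. Of the 4, only Dnmt3b and Hells passed under all alternatives of both kinds. Dmap1 (−0.47 ± 0.41) and Tet3 (−0.10 ± 1.18) did not pass.

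Polycomb genes are given by complex. Polycomb repressive complex 1 (PRC1) ubiquitinates histone H2A and holds 1 of several Cbx readers. Cbx7, the reader known from ESC, measured −4.43, −3.33 and −2.49 in ESC RNA and −16.19, −11.62 and −4.94 in ICM-like samples, where it was detected in 12 of 40. Its groups did not overlap, and the difference was 7.06 ± 0.80 (adjusted p = 6.5e-05), or 5.67 with values below −10 set to −10. Scml2 (4.67 ± 0.43, adjusted p = 1.8e-05), L3mbtl3 (3.00 ± 0.85, adjusted p = 0.015) and the ubiquitin ligase Rnf2 (1.39 ± 0.30) were also higher. Of these 4, Cbx7 and Rnf2 kept the call under every RNA amount alternative. L3mbtl3, undetected in 1 of the 3 ESC samples of 50 pg or less, was at 0.18 over these, at −0.36 with values below −10 set to −10 as well, and at 2.16 without Ssu72, each time without passing.

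In the same list of 12 PRC1 and related genes, Bmi1, Ring1 and Scmh1 were lower and 5 did not pass, shares near the 35% higher and 14.6% lower over all 137 genes. Ring1, which encodes the paralogue of Rnf2, measured −13.02, −4.50 and −2.80 in ESC RNA and −12.55, −2.10 and 0.12 in ICM-like samples. The difference was −3.70 ± 0.92 (adjusted p = 0.0076), and it grew to −8.99 with ESC RNA of 50 pg or less, since the 3 ESC samples of lowest amount were those without detection. Bmi1, a partner of these ligases, differed by −2.36 ± 0.30 (adjusted p = 1.6e-04). Scmh1 measured −2.46, −1.82 and −1.06 in ESC RNA and −2.39, −0.11 and 1.68 in ICM-like samples and differed by −1.78 ± 0.29 (adjusted p = 9.1e-04). The study grouped Scmh1 with ICM genes in these cells, so this difference is not independent of the selection.

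Of 7 genes of PRC2, which methylates lysine 27 of histone H3, Phf19 (6.03 ± 1.14, adjusted p = 0.0017), Eed (0.99 ± 0.34) and Ezh2 (0.85 ± 0.27) were higher and Ezh1 (−1.19 ± 0.24, adjusted p = 0.0027) was lower. The other 3 PRC2 genes did not pass, and over all 137 genes 35% were higher and 14.6% lower. Ezh2 and Ezh1 are alternative catalytic subunits. The call of Ezh1 held under every RNA amount alternative and was lost without Hnrnpr (−0.28), and those of Eed and Ezh2 were lost under alternatives of both kinds. Phf19, a targeting subunit, was detected in all ESC samples and in 15 of 40 ICM-like samples. It was also detected in 9 of 10 TE-like samples, with a median of −4.49 against −3.19 in ESC RNA and −11.39 in ICM-like samples.

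**Figure D4:**
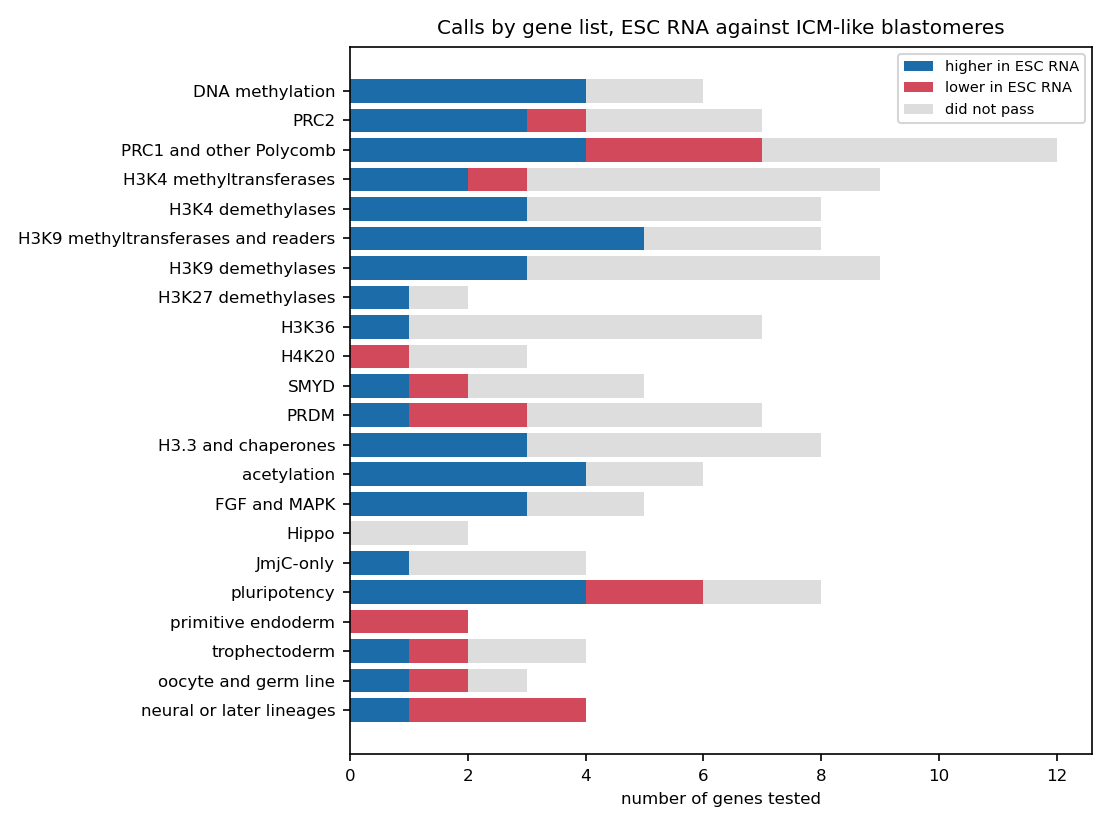
Number of genes (horizontal axis) of each list that were higher (blue) or lower (red) in ESC RNA than in ICM-like blastomeres at an adjusted p below 0.05, or did not pass (grey). Score and control genes are not counted. For comparison, 35% of all 137 genes were higher and 14.6% lower.

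Enzymes of histone methylation followed, beginning with lysine 4 of histone H3 (H3K4), a mark of active promoters. Setd7, an H3K4 methyltransferase, measured −3.93, −3.63 and −2.34 in ESC RNA and −15.17, −11.59 and −4.30 in ICM-like samples, where it was detected in 14 of 40. The groups did not overlap, and the difference was 6.42 ± 0.61 (adjusted p = 2.1e-05), or 5.17 with values below −10 set to −10. Of the 9 H3K4 methyltransferase genes tested, Setd7 and Mll5 were higher, Mll2 was lower at −0.80 ± 0.27 and 6 did not pass. Over all 137 genes 35% were higher and 14.6% lower. The direction of Mll2 was not the same under every scaling. Of 8 H3K4 demethylase genes, Kdm1b, Kdm5b and Kdm1a were higher and none was lower, near the background of 35% and 14.6%. Kdm1b, known for its role in oocytes, measured −2.46, −0.99 and 0.31 in ESC RNA and −12.55, −3.21 and −0.42 in ICM-like samples and differed by 3.97 ± 0.78 (adjusted p = 0.002).

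Lysine 9 of histone H3 (H3K9), a mark of heterochromatin, had 5 of its 8 methyltransferase and reader genes higher and none lower, against 35% and 14.6% over the 137 genes. Of the 5, Cbx1 alone passed under every RNA amount and scaling alternative. The readers Cbx1, Cbx3 and Cbx5 encode heterochromatin protein 1. Cbx1 measured 1.94, 2.46 and 3.00 in ESC RNA and −1.27, −0.0024 and 2.10 in ICM-like samples and differed by 2.44 ± 0.27 (adjusted p = 6.2e-05). Suv39h2, a trimethylating enzyme, was detected in all ESC samples and 33 of 40 ICM-like samples and differed by 4.73 ± 0.92 (adjusted p = 0.002). On the demethylase side 3 of 9 genes were higher, led by Kdm4c, which measured 2.24, 2.66 and 3.35 in ESC RNA and −11.88, −1.26 and 0.81 in ICM-like samples. Kdm4c did not overlap between the groups and differed by 4.84 ± 0.71 (adjusted p = 4.5e-04). Jmjd1c (1.95 ± 0.33) and Jhdm1d (1.19 ± 0.26) were the others.

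The remaining lists are given by their counts, to be read against 35% higher and 14.6% lower over all 137 genes. Of 6 acetylation genes, Tada3 (4.62 ± 1.49), Tada2a, Sirt1 and Hat1 were higher, the call of Tada3 being lost when any 1 ESC series was left out (4.55 to 4.73). Of 8 genes of histone H3.3 and its chaperones, Atrx (1.75 ± 0.46), DAXX and DEK were higher, and H3f3b (−1.76 ± 1.15), undetected in the 800 pg ESC sample alone, did not pass. Of 5 SMYD genes, Smyd3 was higher at 2.71 ± 0.75 and Smyd1 lower at −6.82 ± 1.18. Smyd1 was undetected in all ESC samples and detected in 21 of 40 ICM-like samples, so the ESC side is a floor. Prdm4 (1.51 ± 0.55) was higher among 7 PRDM genes, and Prdm2 (−1.04 ± 0.31) and Prdm6 (−2.52 ± 0.52) were lower. Prdm6 was detected in 1 ESC sample and 7 ICM-like samples, and its difference was −0.43 with values below −10 set to −10, which lost the call. For H3K36, 1 of 7 genes, Whsc1 (2.35 ± 0.57), was higher. For H4K20, Suv420h1 (−1.22 ± 0.35) was lower. The H3K27 demethylase Kdm6a (1.53 ± 0.41) was higher and Kdm6b (−0.33 ± 0.40) did not pass. Neither Hippo gene outside the score passed, with Nf2 at −0.20 ± 0.25 and Yap1 at −0.18 ± 0.26. Among the JmjC-only proteins 1 of 4, Jmjd8 (2.73 ± 0.48, adjusted p = 0.001), was higher. Of the genes in this paragraph, Jmjd8 alone passed under every RNA amount and scaling alternative. The calls of Atrx, DAXX, DEK, Hat1, Smyd3, Prdm4, Whsc1 and Kdm6a were lost under alternatives of both kinds.

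General factors were also among the genes higher under every RNA amount and scaling alternative. Ctcf, which organizes chromatin loops, measured 1.14, 1.59 and 2.46 in ESC RNA and −1.21, −0.17 and 0.85 in ICM-like samples, without overlap, and differed by 1.69 ± 0.23 (adjusted p = 2.0e-04). Dicer1, the nuclease of microRNA maturation, differed by 1.77 ± 0.30, and Eif1a, a translation initiation factor, by 1.77 ± 0.27. In the other direction, Lrpap1, a chaperone of lipoprotein receptors, measured −2.52, −1.67 and −0.97 in ESC RNA and −0.59, 1.27 and 2.46 in ICM-like samples, again without overlap, and differed by −2.92 ± 0.27 (adjusted p = 1.8e-05).

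**Figure D5:**
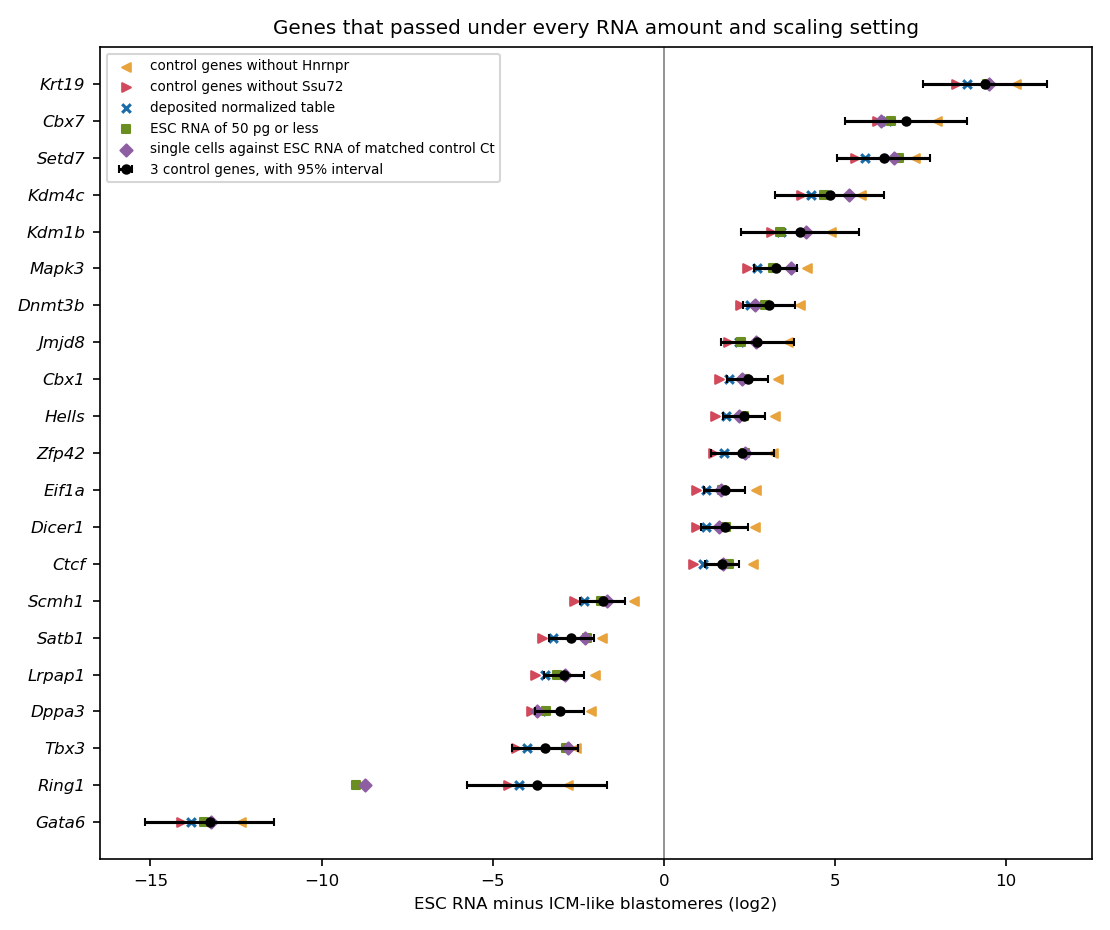
Difference between ESC RNA and ICM-like blastomeres (log2, horizontal axis) for the 21 genes that passed under every RNA amount and scaling alternative. Black points with bars are the main estimate and its 95% interval, and coloured symbols are other control genes, the deposited table, ESC RNA of 50 pg or less, and single cells against the 2 ESC samples of matched Ct. Every symbol of a gene lay on the same side of 0, and that of Ring1 moved most with RNA amount.

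Genes of later lineages and the germ line were measured as well. Pax6, a neural and eye factor, was detected in 9 of 10 ESC samples and in 2 of 40 ICM-like samples. It measured −10.46, −4.46 and −3.37 in ESC RNA and −14.94, −11.91 and −6.41 in ICM-like samples, and differed by 6.85 ± 0.61 (adjusted p = 1.8e-05). The ESC sample of 32 pg was the one without Pax6. The difference was 4.82 with ESC RNA of 50 pg or less, and 3.09 with values below −10 set to −10 as well, where the call was lost. Satb1, a chromatin organizer, differed by −2.70 ± 0.29 (adjusted p = 5.6e-05). Dlx1 was undetected in every sample of both groups, so its call of −2.09 is a difference between floors and not of expression. Rbp2 (−3.70) was undetected in all ESC samples and in 32 of 40 ICM-like samples.

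Among germ line genes, Dazl, an RNA-binding protein, was detected in 7 of 10 ESC samples and 5 of 40 ICM-like samples and differed by 4.55 ± 1.07 (adjusted p = 0.0057). None of the 3 ESC samples of 50 pg or less held it, and the difference over these was −0.51. Brdt, a testis bromodomain gene, was detected in 6 ESC samples and 29 ICM-like samples and differed by −4.76 ± 1.36 (adjusted p = 0.015), a call lost without series a (−4.30) or series b (−3.43). ZP3, a component of the egg coat, differed by 2.68 ± 1.16 and did not pass.

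Xist, the RNA of the inactive X chromosome, and Kdm5d, a Y-linked demethylase, divided the embryos. Xist was detected in all 31 ICM-like samples of embryos 1, 8, 9, 11 and 12 and in none of the 9 samples of embryos 10 and 13. Kdm5d was detected in exactly those 9 samples and in no other ICM-like sample. ESC RNA had Xist in 5 of 10 samples, with a highest value of −3.61 against 2.73 as the lowest detected value in ICM-like samples. Kdm5d was detected in 1 ESC sample, at −9.81. Against this mixture of embryos, the differences of −9.69 ± 4.36 for Xist (adjusted p = 0.086) and −4.62 ± 3.28 for Kdm5d (adjusted p = 0.24) did not pass.

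Over all 137 genes, ESC RNA lay about as far from ICM-like as from TE-like blastomeres. The median absolute difference to ESC RNA was 1.36 for the ICM-like and 1.32 for the TE-like samples, with means of 2.02 and 2.12. The isolated ICM labelled as such was at a median of 1.34 and the labelled trophectoderm at 1.80, with 1 sample each. With each sample set to its median, ICM-like samples were at 1.15 and TE-like samples at 1.18. The labelled ICM and trophectoderm were then at 1.12 and 1.26. With the control genes, the 26 blastomeres of morulae were at a median of 1.30, while MII oocytes were at 2.35 and zygotes at 2.27. These values are given without a test, and they leave out the score genes.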

How the data were processed

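The authors amplified 192 targets with CellsDirect chemistry and measured them on BioMark chips. They deposited a table of Ct values, a score in PCR cycles with undetected genes at 30, and a normalized table in log2 units. The deposited log2 values equal 30 minus Ct relative to Gapdh, Hspa8 and Lmnb1 (within 1.0e-08), all among the 36 assays marked as failed, whereas the methods name Hnrnpr, Ssu72 and Ube2e1. Values were therefore recomputed from Ct with the latter, and the deposited log2 table was an alternative. No column outside the labelled samples was found. Depth is not defined for qPCR. Of 7800 values in both groups, 1072 were undetected.

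Groups were taken from the labels and the score. limma 3.58.1 in R 4.3.3 (lmFit, eBayes, two-sided) was run on 3 ESC series means and 7 embryo means, with Benjamini-Hochberg adjustment over 156 genes, and separately on 10 ESC samples against log2 picograms with series as a term. Both fits were tested on simulated data. Other steps used Python 3.11.15 with pandas 2.3.3 and matplotlib 3.10.9. The score, members, gene lists and alternatives were chosen with earlier results of these data known. Genes the study grouped by correlation in these cells are not independent of the selection. Examples are Tet1, Prdm14, Ezh1, Scmh1, Tbx3 and Jmjd1c with ICM genes, and Dnmt3b and Kdm1b with trophectoderm genes. Named genes are the 4 markers, score and control genes, the 12 largest called differences in each direction, the extremes of each list, the genes with an RNA amount slope, Xist and Kdm5d. A few genes that meet this rule are not reported here.

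Alternatives covered RNA amount (values below −10 set to −10, ESC RNA of 50 pg or less, and matched control Ct), control genes, sample median, detection filter, unit of replication, a replicate block, weights, blastomere selection, and leaving out each series, sample or embryo. The matched Ct setting, the joint floor and amount setting, and 2 changes of blastomere samples were chosen after seeing the data.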

Additional observations from a re-analysis of the deposited data

Results flagged for a closer look

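In 6 of the 100 gene and group combinations examined, 1 value lay far from the others of its group, and chance alone gives about 1 in 20. In ESC RNA of 32 pg (series ESC2), Pax6, Setdb2 and Suv420h2 were all undetected at a floor of −10.46, while their other 9 ESC samples reached down to −5.52, −3.25 and −5.58. This was the ESC sample of highest control Ct, 19.5. H3f3b, which encodes histone H3.3, was undetected (−15.67) in the 800 pg ESC sample and between 2.21 and 2.93 in the other 9, and without series ESC2 its difference changed sign. Among embryo means, Whsc1 was at −4.49 in embryo 13 against −2.32 to −1.78 in the others. Suv420h2 was at −9.76 in embryo 10 against −6.40 to −4.34. What set these values apart was not tested.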

How the results depend on the processing

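The count of 68 genes became 104 without Hnrnpr and 34 with single cells against the 2 ESC samples of matched control Ct, which held 31 of the 68. It lay between 55 and 84 under the other settings, and between 52 and 70 when 1 series or embryo was left out, with 52 of the 68 kept without series a, 54 without series b and 61 without series ESC2. Replicate numbers shared by the labels of both groups do not pair them, since the correlation of deviations over 7 pairs ran from −0.18 to 0.28. With the replicate block 55 genes passed, 47 of them among the 68. For the slope on RNA amount, 4 genes became 0 with values below −10 set to −10, 0 in series b alone (14 at an unadjusted p under 0.05) and 0 without the series term (17 unadjusted), and 4 to 6 when 1 sample was left out.

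Of the tested genes given with a value or call, directions turned as follows. With ESC RNA of 50 pg or less, matched Ct, and the joint floor and amount setting, in this order, Dazl was at −0.51, −0.11 and −0.68, Suv420h2 at −0.69, −0.22 and −0.95, H3f3b at 0.15, 0.083 and 0.15, Nf2 at 0.24, 0.17 and 0.24, and Tet3 at 0.48, 0.33 and 0.66. Dlx1 was at 0.65 and 0.12 in the first 2 of these, Yap1 at 0.095 in the first and the last, and L3mbtl3 at −0.36 in the last. Without Hnrnpr, Dmap1 was at 0.44, Kdm6b at 0.58, Ash1l at 0.27, Nf2 at 0.71, Jmjd6 at 0.68, Mll2 at 0.10, Yap1 at 0.72 and Tet3 at 0.80. Nf2 was at 0.080 and Yap1 at 0.47 with the replicate block. Tet3 was at 0.15 with values below −10 set to −10, 0.20 at a score above 4 and 0.40 without groups of 3 or more cells. Leaving out 1 series or embryo, Dmap1 ranged from −0.82 to 0.15, H3f3b from −2.82 to 0.30, Mll3 from −1.74 to 0.026 and Tet3 from −1.27 to 1.15, with the highest values without series ESC2, ESC2, b and b. Of these genes Dazl, Dlx1, L3mbtl3 and Mll2 had passed. Among the score genes, which were not tested, Pou5f1, Klf4, Pecam1, Trim28 and Tspan8 turned under at least 1 setting. The causes were not tested. A gene undetected in a sample has only an upper limit there.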
